A study of Drosophila melanogaster with 8 samples.

Results

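The euchromatic arm of the X chromosome was taken as the 1 kb windows of dm3 chrX from 0.1 Mb to 20 Mb, leaving out 350 kb from 8.3 Mb, where ovarian follicle cells amplify chorion genes. Of 19550 such windows, 18627 (95.3%) had a mean input level of at least 2 RPKM (reads scaled to window length and library size) over 4 input libraries and are described here, out of 117126 windows that passed the same filter over the whole genome. The other 923 windows (4.72%) fell under the filter and were not tested. Chromatin came from adult ovaries of Drosophila melanogaster in 2 genotypes, MTgal4_shW and MTgal4_shSov. Each carries the Gal4 driver MTgal4, known to act in the female germ line, and a short hairpin transgene. The shSov hairpin is aimed at small ovary (sov), and the shW hairpin, named for white, is used here as the control. RefSeq places both sov and white on X. Flies were fed yeast before dissection. Each genotype had 2 libraries from chromatin immunoprecipitation (ChIP) with an antibody to H3K9me3 and 2 input libraries with no antibody. They are called replicate 1 and replicate 2 (labelled as a repeat), with nothing in the labels to say that they came from separate animals, so p-values measure only the spread between these libraries. The driver acts in germ cells, while whole ovaries also hold somatic follicle cells. A loss of the mark in some cells and a weaker mark in every cell cannot be told apart in such material. The amount of sov RNA was not measured in these libraries.

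H3K9me3 is histone H3 trimethylated at lysine 9, the mark bound by HP1a in constitutive heterochromatin. In flies it covers the repeat-rich DNA near the centromeres, and on the euchromatic arms it is usually found as islands at transposon insertions and some genes. Sov is a zinc-finger protein known to work with HP1a in ovarian heterochromatin. Enrichment below is log2((ChIP + 1)/(input + 1)) of the RPKM values, so 0 means that a window had equal ChIP and input levels and 1 means about 2-fold more ChIP. The values of 4 libraries are always given in the order shW replicate 1, shW replicate 2, shSov replicate 1, shSov replicate 2.

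The ChIP libraries held 4208693, 6383061, 16514896 and 5847945 reads over all windows, and the inputs 13688640, 9760028, 27962050 and 26348096. A median X window thus held 28, 44, 126 and 45 ChIP reads and 106, 81, 217 and 206 input reads, so single windows are least precise in shW. Enrichment across X windows correlated between replicates with r = 0.75 in shW and r = 0.87 in shSov. These correlations are across windows, which are not independent, and shW replicate 2 correlated with shSov replicate 1 at r = 0.80.

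X euchromatin carried more H3K9me3 than the euchromatin of chromosome arms 2L, 3L and 3R in each of the 4 library pairs. The mean enrichment over X windows was -0.16, -0.17, -0.053 and -0.039. For 2L it was -0.57, -0.43, -0.29 and -0.36, with 3L and 3R close to 2L. The lowest of the 4 X values thus lay above the highest value of any of the 3 arms. Within a library, X exceeded the 3 arms pooled (65051 windows) by 0.44, 0.28, 0.25 and 0.32, a mean of 0.32 ± 0.086 (SD, n = 4) or 1.25-fold. The difference was 0.31 ± 0.074 against 2L, 0.33 ± 0.079 against 3L and 0.33 ± 0.10 against 3R. Each was above 0 in 4 of 4 libraries, with an exact two-sided sign-flip permutation p of 0.125 (Benjamini-Hochberg 0.125 over 3 arms), the smallest p that 4 libraries can give. The excess over the pooled arms did not separate the genotypes: it was 0.077 lower in shSov, with overlapping values and an exact permutation p of 0.667.

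**Figure D1:**
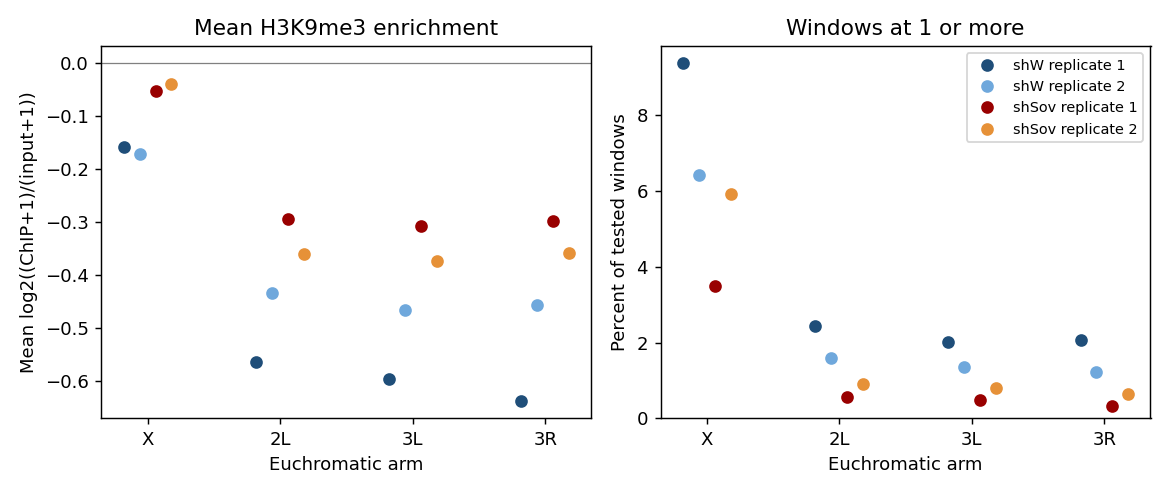
Mean enrichment, log2((ChIP + 1)/(input + 1)), of euchromatic windows on X, 2L, 3L and 3R (left), and the percent of tested windows with an enrichment of at least 1 (right); each point is 1 of the 4 library pairs. The 4 X means lie between -0.17 and -0.039, above every point of the 3 other arms, and X has the highest share of windows in each library.

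The X excess did not rest on the strongly marked windows alone. In windows outside marked blocks (defined below) it was 0.39, 0.22, 0.21 and 0.28. In the 13782 X windows over 5 kb from any marked window, a comparison chosen after the data were seen, it was 0.27, 0.13, 0.15 and 0.20, smaller in each library but still above 0. When windows were split into 4 groups by input level, the mean excess was 0.33, 0.38, 0.37 and 0.25 from the lowest to the highest group, and it was above 0 in each library and group. The input itself was slightly higher on X. Its mean log2(RPKM + 1) exceeded that of 2L by 0.12, 3L by 0.048 and 3R by 0.053, above 0 in 4 of 4 libraries (exact sign-flip permutation p = 0.125 for each). The part of this input difference in the X excess was not tested beyond the groups by input level. The plain ChIP level averaged 9.31, 8.57, 8.69 and 9.15 RPKM on X and 5.70, 6.10, 6.63 and 6.46 RPKM on the 3 arms.

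The upper end of the distribution differed most. The share of X windows with an enrichment of at least 1 was 9.38%, 6.44%, 3.50% and 5.93%. On 2L it was 2.43%, 1.60%, 0.566% and 0.917%, and on 3L and 3R it was between 0.317% and 2.06%. X had the highest share in each library. Counted instead as windows at least 1.5 above the median of their own arm, a measure added after the data were seen that removes the general shift, the share was 6.30%, 4.49%, 1.17% and 2.27% on X against 3.37%, 1.38%, 0.241% and 0.564% on the pooled arms.

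A window was called marked where both libraries of a genotype had an enrichment of at least 1. In shW 987 X windows (5.30%) were marked, and in shSov 599 (3.22%). The 474 windows marked in both were 48.0% of the shW windows and 79.1% of the shSov windows. Another 513 were marked in shW alone and 125 in shSov alone, by a threshold that was not a test of the difference. On 2L, which has more tested windows (19627), 238 were marked in shW and 97 in shSov. The counts were 209 and 88 on 3L, and 220 and 72 on 3R.

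Marked X windows gathered in blocks, defined as runs of at least 3 windows marked in either genotype, joined across gaps of 1 window. X held 138 blocks over 740 kb, or 7.41 per Mb of tested windows. The 3 arms together held 68 blocks over 340 kb, or 1.04 per Mb of tested windows. The X blocks were short: the median length was 4 kb and the range 3 to 29 kb, and 10 blocks had at least 10 windows. They took in 684 (61.5%) of the 1112 X windows marked in either genotype, and the other 428 lay singly or in pairs. By genotype, 117 blocks had marked windows in both, 18 in shW alone and 3 in shSov alone. An untested window lay in or within 2 windows of 18 blocks (13.0%).

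Blocks were spread along the whole of X rather than gathered at one end. In successive 2 Mb bins from the telomeric end there were 16, 11, 14, 9, 14, 10, 15, 12, 15 and 22 blocks, so each bin held at least 9. The distance from one block to the next had a median of 64 kb and ran from 2 to 758 kb, and 32 of 137 distances (23.4%) were under 20 kb. Marked windows in shW numbered between 75 and 126 per bin up to 18 Mb and 141 in the last bin, the one nearest the centromere. In shSov the count per bin was lower in each of the 10 bins. The first bin held 40 in shSov against 126 in shW and the second 27 against 75, but the third 72 against 83.

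**Figure D2:**
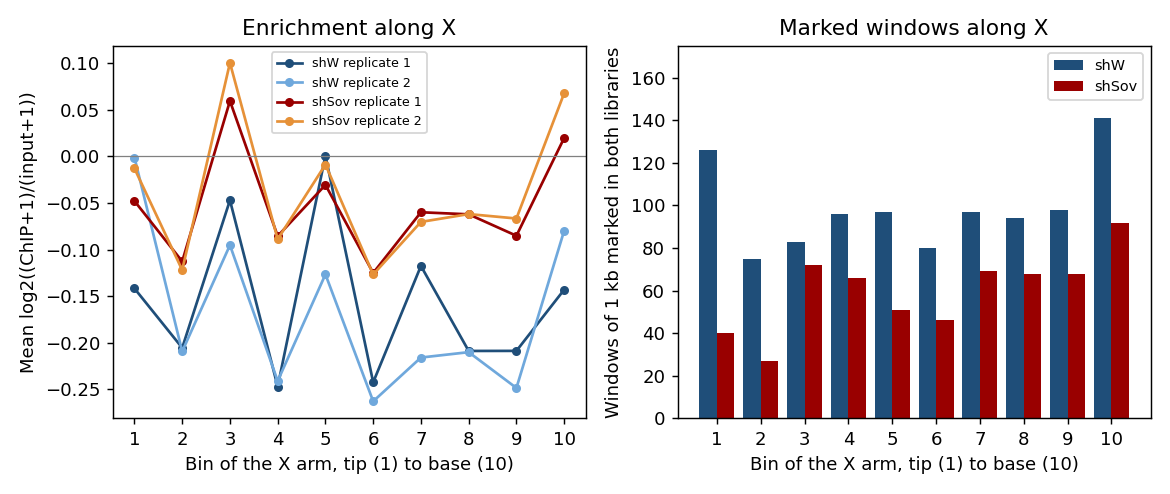
Mean enrichment of each library (left) and the number of windows marked in both libraries of a genotype (right) in the 10 bins of 2 Mb along X, from the telomeric tip (1) to the base (10). Each bin has fewer marked windows in shSov, with 40 against 126 in the first bin and 92 against 141 in the last.

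Block edges were set by the threshold of 1, so the step across an edge is part of the definition and the averages around it are a description. The outermost window inside a block averaged 1.42, 1.41, 0.98 and 1.16, and the first window outside 0.79, 0.50, 0.40 and 0.51. The window 5 kb out averaged 0.19, 0.046, 0.11 and 0.15, and that 10 kb out 0.0058, -0.093, 0.0041 and 0.025. At 10 kb the X flanks thus still lay above the mean of X windows outside blocks, which was -0.23, -0.24, -0.099 and -0.091. Around blocks of the 3 arms the window 10 kb out averaged -0.39, -0.33, -0.23 and -0.31, below X in each library. The arms' windows outside blocks averaged -0.61, -0.46, -0.31 and -0.37. Flanks at 10 kb thus lay above their own background on the arms too. Median input over the 4 libraries was 7.46 to 8.05 RPKM in X blocks and 7.74 to 8.30 RPKM in X windows outside them, ranges that overlap.

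**Figure D3:**
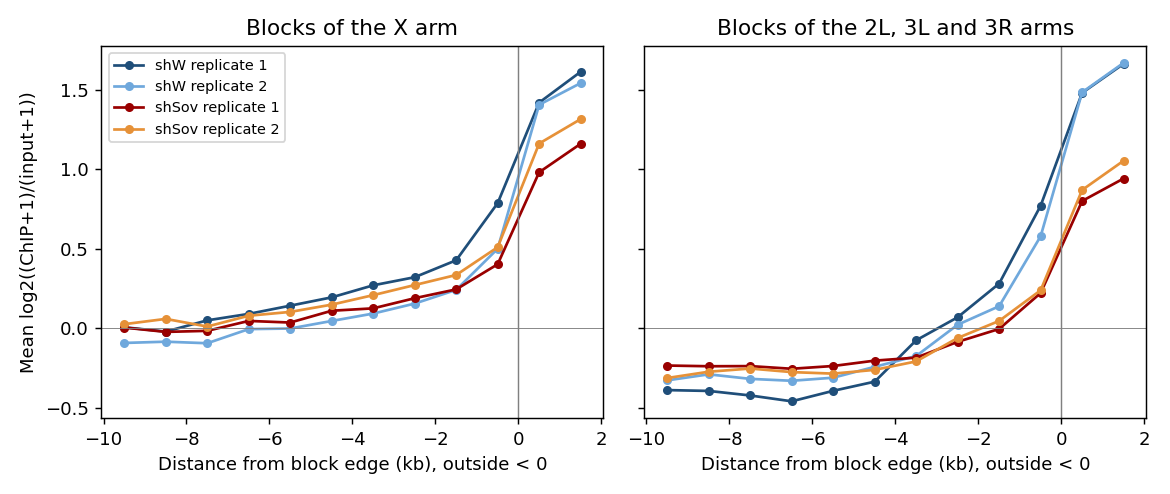
Mean enrichment of each library by distance in kb from a block's edge, negative outside the block, for X (left) and for 2L, 3L and 3R (right). On X the first window outside averages 0.79, 0.50, 0.40 and 0.51 and the 4 libraries lie between -0.093 and 0.025 at 10 kb, where the other arms lie between -0.39 and -0.23.

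Between genotypes, X windows differed in opposite directions at the low and the high end of the scale. The mean over X was -0.16 ± 0.0089 in shW and -0.046 ± 0.0098 in shSov (SD, n = 2), a difference of 0.12 with no overlap between the groups. The exact permutation p was 0.333, the smallest that 2 against 2 libraries allow. The 10th percentile was -1.02, -0.85, -0.52 and -0.67, higher in both shSov libraries. The 99th percentile was 1.95, 1.88, 1.41 and 1.63, lower in both shSov libraries by 0.40 on average (p = 0.333, exact permutation). The SD over X windows was 0.77, 0.65, 0.46 and 0.57. The order of the SDs and of the 10th percentiles followed the median ChIP reads per X window, 28, 44, 126 and 45. It did not follow total ChIP reads, since shSov replicate 2 had fewer than shW replicate 2 but a narrower spread. The medians of these 2 libraries, 44 and 45 ChIP reads, were nearly equal, while their median input reads per X window were 206 in shSov and 81 in shW. The part of depth in their order was not tested beyond the thinning that follows. With libraries thinned to equal depth, an alternative added after the data were seen, the SD was 0.77, 0.67, 0.52 and 0.60, the 10th percentile -1.03, -0.90, -0.64 and -0.72, and the 99th percentile 1.95, 1.88, 1.45 and 1.69. The genotypes still did not overlap in these 3 measures, and the differences were smaller. The 90th percentile, 0.96, 0.73, 0.58 and 0.75, overlapped between genotypes. Mean enrichment over the 3 arms was also higher in shSov, by 0.20, and relative to those arms X was 0.077 lower in shSov. Enrichment within a library is relative to its total reads, so a general shift and a change of scale cannot be told apart here. X took 17.3%, 16.0%, 16.2% and 17.0% of all ChIP reads, values that overlapped between genotypes.

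Window by window, edgeR's quasi-likelihood test of the change in ChIP over input called 129 X windows lower in shSov at an adjusted p under 0.05. That is 0.693% of X windows, beside a background of 0.595% over all 117126 windows. It called 42 X windows higher, 0.225% beside a background of 0.264%. The X shares were thus near those of the genome. The counts of lower and higher windows were 900 and 1664 at an unadjusted p under 0.05. No genome-wide share was taken at that threshold, so those 2 counts have no background here. On 2L, 3L and 3R, 79, 98 and 124 windows (0.403%, 0.471% and 0.504%) were called lower and 40, 46 and 76 (0.204%, 0.221% and 0.309%) higher. The X share of lower windows was thus above that of each of these arms, and its share of higher windows lay within their range. The median fitted log2 change was 0.16 over X windows and 0.19 over all windows, so calls are read beside that shift. The number of calls depended on single libraries: 38 to 62 windows were lower and 5 to 15 higher without any 1 of the 4 inputs or either shSov ChIP library, and 983 and 487 without shW ChIP replicate 2. At equal depth 72 were lower and 19 higher.

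Most windows called lower were marked in the control. They had a median of 1.41 in shW against -0.03 in shSov, and the fitted log2 changes ran from -2.34 to -0.94. Of the 129, 91 were marked in shW and 80 (62.0%) lay in blocks. They fell in 33 stretches of 100 kb, with 35 between 0.9 and 1.0 Mb, 14 between 3.2 and 3.3 Mb, 13 between 1.0 and 1.1 Mb and 12 between 18.4 and 18.5 Mb. Over all 18627 tested X windows, 987 (5.30%) were marked in shW, 1112 in either genotype, and 17891 lay outside blocks. Of the 42 windows called higher, 0 lay in blocks and 42 were marked in neither genotype. Most X windows were likewise unmarked and outside blocks, so those counts do not set the 42 apart. These 42 windows had a median of -0.84 in shW against 0.35 in shSov. They were spread over 25 stretches of 100 kb, with at most 5 in one.

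Over the blocks, both shSov libraries were lower than both shW libraries for the median X block. It stood at 1.49, 1.45, 1.12 and 1.29, or 1.47 ± 0.034 in shW and 1.21 ± 0.12 in shSov (SD, n = 2). The groups did not overlap, and the difference of -0.26 had an exact permutation p of 0.333. Median ChIP in blocks went from 23.8 and 24.3 RPKM in shW to 19.0 and 21.4 RPKM in shSov. Across the 138 blocks the enrichment of shSov minus that of shW had a median of -0.30 with quartiles of -0.60 and -0.05, and it was below 0 in 119. Over all 845 blocks genome-wide the median was -0.29 and 762 were below 0, so X was not set apart. In 82 X blocks (59.4%) both shSov libraries lay below both shW libraries, against 70.4% of the 845 blocks genome-wide. In 5 (3.62%) both lay above, against 2.72%.

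Summed over blocks, the edgeR test called 34 X blocks lower (24.6%), beside 17.2% of all blocks, and 1 higher, beside 0.237% of all blocks. At an unadjusted p under 0.05 the counts were 55 and 1, with no genome-wide share taken at that threshold. Blocks were chosen as marked in either genotype, so a block marked in one genotype alone had to differ, and these counts describe the blocks. Of the 117 blocks with marked windows in both genotypes 21 (17.9%) were called lower and 0 higher, with a median enrichment difference of -0.21. Over the whole genome 79 of 765 such blocks (10.3%) were called lower, with a median difference of -0.27. Of the 18 X blocks marked in shW alone 13 (72.2%) were called lower, beside 66 of 74 (89.2%) genome-wide. Blocks were also drawn instead from the mean of the 4 libraries. Of 124 such X blocks edgeR called 14 (11.3%) lower and 0 higher, beside 8.30% lower of all such blocks. At an unadjusted p under 0.05 the counts were 39 and 0, again with no genome-wide share taken. Of the 34, 13 had no marked window left in shSov and 21 still had some. Their fitted changes lay between -1.90 and -0.54, with a median of -0.75. The 103 blocks that passed in neither direction had changes from -0.89 to 0.40 and a median of -0.19. A loss was thus called for a minority of X blocks. The count of lower blocks was 13 to 18 without any 1 of the 4 inputs or shSov ChIP replicate 1 and 60 without shW ChIP replicate 2; it was 62 when libraries were scaled to the 3 arms and 10 with DESeq2.

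On the 3 arms 26 of 68 blocks were marked in shW alone, against 18 of 138 on X, so values over all blocks of the arms lean further on blocks that passed through shW. Their median enrichment was 1.55, 1.54, 0.93 and 1.08, and 33 of 68 (48.5%) were called lower, with a median enrichment difference of -0.61. Among the blocks with marked windows in both genotypes, 8 of 41 on the arms were called lower, with a median difference of -0.33, against 21 of 117 and -0.21 on X. X blocks started slightly below the arms' blocks in shW and ended above them in shSov: the median X block minus the median block of the arms was -0.062, -0.091, 0.19 and 0.21. That difference moved by 0.28 between genotypes with no overlap, over block lists that differ in how many blocks were marked in shW alone. The move is therefore a description of those lists, and no p-value is read from it.

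**Figure D4:**
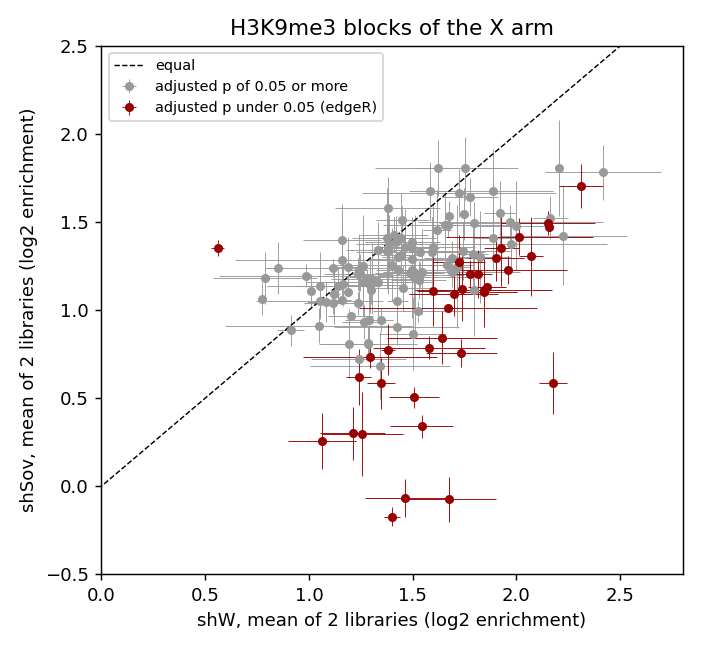
Enrichment of each of the 138 X blocks in shW (horizontal) and shSov (vertical), as means of 2 libraries with SD bars; the dashed line marks equal values and red points have an adjusted p under 0.05. The 34 blocks called lower lie below the line, 3 of them near or under 0 in shSov, and the 1 block called higher lies above it at 0.56 and 1.35.

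The blocks called lower were unevenly spread. By 2 Mb bin from the telomeric end they numbered 10, 5, 2, 2, 4, 0, 1, 3, 2 and 5. These were out of 16, 11, 14, 9, 14, 10, 15, 12, 15 and 22 blocks, beside a share of 24.6% over all X blocks. The median enrichment difference of blocks was -0.68 in the first bin and between -0.52 and -0.09 in the other 9. Of the 5 largest called falls, 4 were in the first bin. Those 4 lay between 0.9 and 1.2 Mb and were on the list through shW alone.

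The block at 966001 to 978000 (12 kb) had the largest called fall on X. Its enrichment was 1.52, 1.84, 0.014 and -0.16, so the mark was well over input in both shW libraries and near the input level in both shSov libraries. ChIP went from 28.3 ± 5.23 to 8.21 ± 0.59 RPKM (SD, n = 2), while input was 7.93 ± 0.18 and 8.62 ± 0.20 RPKM. The fitted log2 change was -1.90 (adjusted p = 0.00011). The neighbouring block at 941001 to 958000 (17 kb) had similar values, 1.33, 1.60, 0.0091 and -0.14, with a change of -1.65 (adjusted p = 0.00016). Between the pair lie 8 windows, 958001 to 966000, that all fell under the input filter. Their input was 0.037, 0.10, 0.022 and 0.038 RPKM, so almost no reads were placed there in any library, and the mark in them was not measurable. The gap was noticed after the values were seen. The block at 1020001 to 1028000 stood at 1.43, 1.37, -0.13 and -0.21 (change -1.68, adjusted p = 6.6e-05). That at 1126001 to 1130000 stood at 1.44, 1.65, 0.38 and 0.29 (change -1.26, adjusted p = 0.00041). In none of these 4 blocks was a window marked in shSov, and the genotypes did not overlap. All 4 were thus on the list through shW alone, so their differences and adjusted p are a description. The stretch from 0.9 to 1.2 Mb (chosen after its values were seen) held 284 tested windows, 7 blocks and 53 of the 129 windows called lower. Its mean enrichment was 0.29, 0.37, -0.016 and 0.025, so that shSov was near the X mean there and shW well above it.

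**Figure D5:**
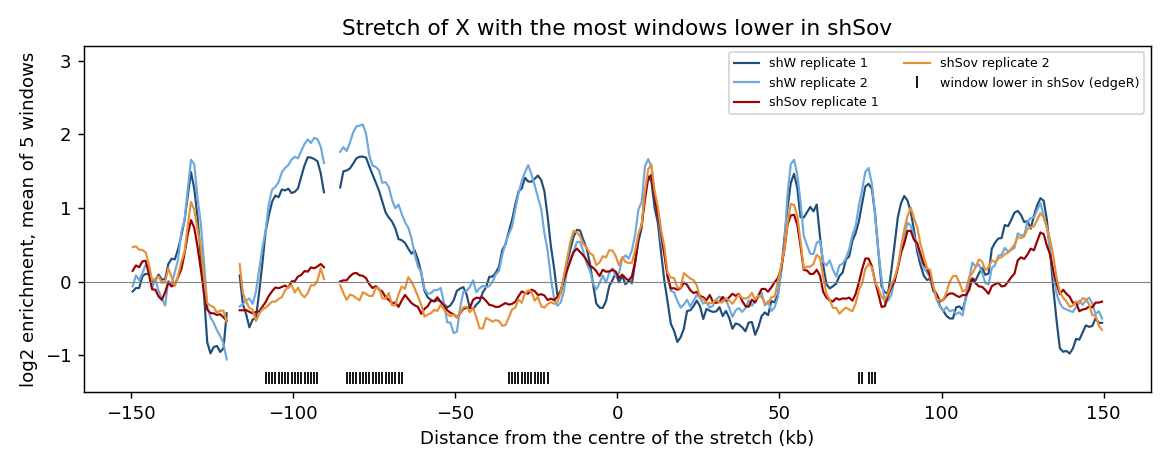
Enrichment along X from 0.9 to 1.2 Mb in each library, smoothed over 5 windows, by distance in kb from the centre of the stretch. Black ticks mark windows called lower in shSov. Lines break only within longer runs of untested windows, and the smoothing bridges an untested window inside the peak near 10 kb. Both shW libraries are high over the ticked windows where both shSov libraries stay near or below 0, or little above it on the right, while at the peak near 10 kb the 4 libraries lie together.

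Outside that stretch the steepest called fall was in a short block at 18678001 to 18681000, near the centromeric end. It stood at 2.13, 2.22, 0.71 and 0.46, with ChIP at 47.0 ± 0.64 RPKM in shW and 17.8 ± 1.77 RPKM in shSov (change -1.57, adjusted p = 0.00016). No window of that short block was marked in shSov, so it was on the list through shW alone and its difference is a description. The longest block, 29 kb at 18431001 to 18460000, was 1.61, 1.85, 0.70 and 0.81. It kept marked windows in shSov, 5 against 27 in shW, and its change was -1.05 (adjusted p = 0.0013). The second longest, 20 kb at 3192001 to 3212000, was 1.59, 1.42, 0.46 and 0.55. It went from 17 marked windows to 0 in shSov (change -1.05, adjusted p = 0.00040). This block was likewise on the list through shW alone, and its difference is a description. The block at 6644001 to 6654000, at 2.17, 2.15, 1.46 and 1.49, stayed marked in 8 of 10 windows in shSov (change -0.85, adjusted p = 0.0036); with DESeq2 its adjusted p was 0.053.

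The other long blocks kept the mark in shSov, and their changes did not pass the test. At 6446001 to 6457000 enrichment was 1.41, 1.84, 1.69 and 1.92, with overlapping genotypes and a change of 0.14 (adjusted p = 0.62). Both its levels were higher in shSov: ChIP was 23.4 ± 4.92 and 35.6 ± 4.08 RPKM, and input 6.78 ± 0.050 and 9.36 ± 0.061 RPKM. At 19612001 to 19624000 the values were 1.68, 1.87, 1.57 and 1.72, with all 12 windows marked in both genotypes (change -0.14, adjusted p = 0.55). The block at 453001 to 465000 stood at 1.68, 2.09, 1.51 and 1.85 (change -0.26, adjusted p = 0.39), about 0.5 Mb from the blocks that lost the mark. That at 14889001 to 14900000 stood at 1.23, 1.44, 1.23 and 1.45 (change 0.0073, adjusted p = 0.97). At 7605001 to 7616000 both shSov libraries were lower, 1.96 and 1.82 against 1.28 and 1.54, but the change of -0.47 missed the threshold (adjusted p = 0.056). It passed under 6 of the 16 alternatives, among them both other scalings.

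The 5 blocks with the highest mean over the 4 libraries, a choice that favours blocks high in both genotypes, were 3 to 6 kb long and had marked windows in both. The highest, at 18406001 to 18409000, stood at 2.62, 2.22, 1.67 and 1.89, with 3 of 3 windows marked in both. In each of the 5, both shSov libraries lay below both shW libraries. The block at 15370001 to 15376000, at 2.39, 2.24, 1.61 and 1.79, was the one that passed the test (change -0.58, adjusted p = 0.022). It did not pass with DESeq2 (adjusted p = 0.55), nor without any 1 of the 4 inputs or shSov ChIP replicate 1 (0.068 to 0.12). Of its 6 windows 5 were marked in shSov. The others were at 11472001 to 11475000, 13654001 to 13657000 and 13702001 to 13706000, with changes of -0.89, -0.64 and -0.38 and adjusted p of 0.077, 0.095 and 0.15. Of their windows, 1 of 3, 2 of 3 and 3 of 4 were marked in shSov. The highest block had a change of -0.64 (adjusted p = 0.094).

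The block at 18220001 to 18224000 was the 1 X block called higher. Its values were 0.54 and 0.58 in shW and 1.32 and 1.39 in shSov, with none of its 4 windows marked in shW and all 4 marked in shSov, so it was on the list through shSov alone and its difference is a description. With blocks drawn from the mean of the 4 libraries no X block was called higher. ChIP rose from 9.43 ± 0.40 to 17.6 ± 2.13 RPKM, with input at 5.80 ± 0.057 and 6.24 ± 0.56 RPKM (change 0.78, adjusted p = 0.014). Without shW input replicate 1, shW input replicate 2 or shSov input replicate 1 the adjusted p was 0.080, 0.054 and 0.081.

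Among called windows outside blocks, the 3 largest falls began at 4581001, 153001 and 10679001. The first stood at 3.13, 1.61, 0.83 and 0.48 (change -1.90, adjusted p = 0.017), and its input also differed between genotypes (log2 change -0.41, adjusted p = 0.028). The second stood at 1.25, 1.73, -0.14 and -0.19 (change -1.74, adjusted p = 0.0013), and the third at 1.90, 1.19, -0.03 and -0.07 (change -1.70, adjusted p = 0.015). In each the genotypes did not overlap. The 3 largest rises began at 19970001, 18488001 and 15768001, and each went from a level below input in shW to one above it in shSov. The first was -1.06, -0.83, 0.60 and 0.22 (change 1.75, adjusted p = 0.0055). The second was -0.86, -0.56, 0.81 and 0.94 (change 1.73, adjusted p = 0.0015), and the third -1.08, -0.40, 0.69 and 1.03 (change 1.69, adjusted p = 0.0038).

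Input DNA also differed between the genotypes on X. The edgeR test of input counts called 967 X windows lower in shSov, beside 4.36% of all windows genome-wide, and 656 higher, beside 3.67%. Together these were 8.71% of X windows, against 6.15%, 6.20% and 5.63% on 2L, 3L and 3R. Over all 117126 windows 5102 were called lower and 4301 higher, so the combined X share was near that of the genome. The X counts, 967 and 656, are those taken up below. These X counts rested on single libraries: they were 131 and 82 without shSov input replicate 1, 59 and 41 without shSov input replicate 2, and 1459 and 1204 without shW input replicate 1. Of the 129 X windows with a lower ChIP over input, 12 were among the X windows with changed input, 8 in the same direction and 4 in the opposite one. Of the 42 higher windows 1 was. The part of these input differences in the ChIP results was not tested beyond those counts.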

How the data were processed

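Reads were aligned to dm3 with Bowtie and handled with bedtools, per the submitters' processing notes; versions and roles are not given in the sources used here. The deposited files list 168744 windows of 1 kb, each with the authors' RPKM and the authors' read count. RPKM values gave levels and enrichment, with a pseudocount of 1 RPKM, and the deposited counts gave the tests. The ChIP and input libraries with the same label were matched. How reads with several positions were placed is not given in the sources used here, and this can change levels in repeats.

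Windows with a mean input of at least 2 RPKM were kept. On X, the 40 windows just above this limit (2 to 2.5 RPKM) had median enrichments of 0.0021, -0.21, 0.014 and 0.14, and the 31 just below (1.5 to 2 RPKM) 0.23, -0.07, 0.11 and 0.15. The arms 2L, 3L and 3R ran from 100 kb of the telomeric end to the distance from the centromeric end that 20 Mb has on X, without the 3L chorion amplicon.

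Counts were tested with edgeR 4.0.16 (quasi-likelihood F-test of the genotype by antibody interaction, library totals as offsets) over all 117126 windows or all 845 blocks, with Benjamini-Hochberg adjustment and a threshold of 0.05. limma 3.58.1 and DESeq2 1.42.0 were alternatives, and the scripts were tested on simulated data. Single values were compared by exact permutation over libraries, two-sided. Replicates differed by more than counting noise (chi-square per degree of freedom over X windows 2.79 and 1.48 for shW and shSov ChIP, 2.02 and 1.13 for input).

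Named blocks were those of at least 10 windows, the 5 with the highest mean, and the 5 largest called falls and rises; named windows were the 3 largest called falls and rises outside blocks. The X windows, definitions and lists were chosen with earlier results of these data known. The design table had placed the counts in the column that holds RPKM, so the columns were exchanged. No genome or gene annotation of dm3 was used here, so blocks are given by position alone.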

Additional observations from a re-analysis of the deposited data

How the results depend on the processing

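The excess of X over the arms kept its sign under each alternative run, ranging over them from 0.18 to 0.36 (2L), 0.19 to 0.38 (3L) and 0.19 to 0.38 (3R), and so did the fall of the median X block (-0.35 to -0.18). Counts of calls did not hold as well. Lower X windows numbered 129 as reported, 72 with libraries thinned to equal depth, 208 over all windows with a read, 48 with limma, and 38 to 983 when 1 library was left out. The 983 came without shW ChIP replicate 2, and the count was 178 without shW ChIP replicate 1 and 38 to 62 without any other library. Higher X windows numbered 42, but 19 with TMM factors, 22 with totals of the 3 arms, 19 thinned, 102 over all windows with a read, 6 with limma, 79 with limma and the replicate block, 12 with DESeq2 and 5 to 487 without 1 library (487 without shW ChIP replicate 2, 5 to 15 without any input or shSov ChIP library). Lower X blocks numbered 34, but 62 with totals of the 3 arms, 10 with DESeq2 (its size factors, taken from the blocks, set the median block change to 0.0045), 11 in blocks of at least 5 windows, 55 and 10 with marks at 1.5-fold and 3-fold, 14 with marks by the mean of 4 libraries, and 13 to 60 without 1 library (60 without shW ChIP replicate 2, 13 to 18 without any input or shSov ChIP replicate 1). The single higher X block became 3 with DESeq2, 0 with at least 5 windows, 4 at 1.5-fold, 0 at 3-fold, 0 with marks by the mean of 4 libraries, 0 with blocks redrawn on thinned libraries (1 with the same blocks at equal depth) and 0 to 4 without 1 library. X blocks themselves numbered 53 with at least 5 windows, 304 at 1.5-fold and 30 at 3-fold. Input calls ranged without 1 input from 59 to 1459 lower and from 41 to 1204 higher. The cause of these moves was not tested, except that fewer windows or blocks enter some of them.

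Of the 34 lower blocks, 34 kept their sign under 16 alternatives and 10 were called lower in each. Directions reversed in a few cases. The X mean changed by -0.077 once libraries were centred on the 3 arms, and the genotype difference of the X excess was 0.0038 without shW replicate 1 (-0.16 to 0.0038 without 1 pair). The block at 453001 to 465000 had 0.029 with DESeq2 and that at 19612001 to 19624000 0.14. The block at 6446001 to 6457000 had -0.0085 with TMM factors, -0.0031 with arm totals and -0.065 to 0.37 without 1 library. That at 14889001 to 14900000 had -0.14 with both scalings and -0.13 to 0.15 without 1 library. No direction is claimed for these 4.

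Same-numbered libraries did not deviate together window by window (r = 0.02 over X windows). An effect shared evenly by all windows would leave no such correlation. Neither this value nor the labels settle whether the numbers pair the libraries. With the replicate block 115 X windows were lower, 37 higher, and 30 X blocks lower, and with a lysate block 35 X blocks. The lysate block, marks by the mean of 4 libraries, blocks redrawn on thinned libraries, percentiles and SD at equal depth and alternatives for input were chosen after seeing the data. Depth limits single windows most in shW replicate 1, with a median of 28 ChIP reads.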
